A study of Homo sapiens with 4 samples.

Results

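The keratin genes were followed in RNA-seq libraries of OVCAR3 cells, an established human line of high-grade serous ovarian carcinoma. Members were all gene rows whose symbol is KRT, a number and at most 1 letter from A to C, which leaves out pseudogenes and keratin-associated proteins. This rule found 55 genes among 62696 gene rows. Per the labels, 3 libraries came from OVCAR3 cells in which the transcript ANAPC1P2, a pseudogene copy of ANAPC1, was knocked down with a short hairpin RNA (knockdown 1, 2 and 3), and 1 library came from wild-type OVCAR3 cells. All cells grew in RPMI medium with fetal bovine serum, and total RNA was depleted of ribosomal RNA before sequencing. The labels name no library with a non-targeting hairpin, and do not say whether the 3 knockdown sets were separate cultures or clones. The p-values therefore reflect only how far these libraries vary, possibly for technical reasons, and the single wild-type library was assumed to vary like the knockdown ones.

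Keratins are the intermediate filament proteins of epithelial cells. Each filament is built from pairs of a type I (acidic) and a type II (basic) keratin, so cells make both kinds. Simple epithelia, such as those lining ducts and the Müllerian tract, rely on KRT8 and KRT7 (type II) with KRT18 and KRT19 (type I). Stratified epithelia use others, for example KRT5 with KRT14 in basal cells and KRT1 with KRT10 above them, and hair and its sheaths use sets of their own. Pathologists read KRT7, and the absence of KRT20, as part of the usual profile of serous ovarian tumours. The type II genes and KRT18 lie together on chromosome 12, where 27 of the members are found, and the other 28 lie on chromosome 17 (GENCODE 29 on GRCh38).

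Values are normalized read counts as deposited. Between 42871815 and 56216398 reads were counted in genes in the knockdown libraries and 27868718 in wild type. ANAPC1P2 itself had 0, 11 and 8 reads in knockdown 1, 2 and 3 and 14 in wild type (0, 8.55 and 8.89 normalized counts against 15.5), too few for the test. The wild-type library stood apart from the others. Summed erythroid markers (6 genes, HBB among them) reached 14706 in wild type against 1.55 to 3.79 in knockdown, where HBB and 3 others of the 6 were at 0 in each library. Summed leukocyte markers (12 genes) reached 854 against 88.9 to 123, and summed neural markers (8 genes) 3583 against 247 to 263. NEUROD6 alone made up 2374 of the neural sum in wild type and was at 0 in each knockdown library. Of 7 neural markers tested, 5 were called lower and 0 higher in knockdown. RBFOX3, which was not called, stood at 108 in wild type against 125 to 142. All 10 serous ovarian markers examined were present in all 4 libraries, but 4 were called higher in knockdown (EPCAM, FOLR1, SOX17 and CLDN4, whose log2 difference of 0.52 became -0.04 with equal totals) and 4 lower (MUC16, PAX8, MSLN and CDH1). Among all protein-coding genes tested, 45.9% were called higher and 24.7% lower. MUC16 was 15.9-fold higher in wild type, at 458890 against 24678 to 35345, and PAX8 stood at 62685 against 18322 to 21361. Whether RNA of other cells had a part in the keratin differences was not tested. In bulk RNA, fewer cells of a type and less RNA per cell cannot be told apart.

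Most keratins with a measurable level were higher in knockdown, and a few from the stratified and hair sets were lower. Of the 55 genes, 18 averaged 10 or more normalized counts across the 4 libraries and were tested. In limma at an adjusted p under 0.05, 12 were higher in knockdown, 3 were lower and 3 did not pass. Among all 23344 genes tested, 31.4% were called higher and 36.3% lower, and among the 14464 protein-coding genes 45.9% and 24.7%, so calls were common throughout. The median log2 difference was 1.06 over the 18 keratins, 0.28 over protein-coding genes and -0.28 over all genes tested. The groups did not overlap for any of the 18, with all knockdown libraries above wild type for 13 and below it for 5, which held in the same way for 40.0% and 52.2% of all genes tested. KRT81, KRT83, KRT6B and KRT78 had under 10 normalized counts in wild type and entered the test through their knockdown values. Without them, 9 of 14 were higher and 3 lower.

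**Figure D1:**
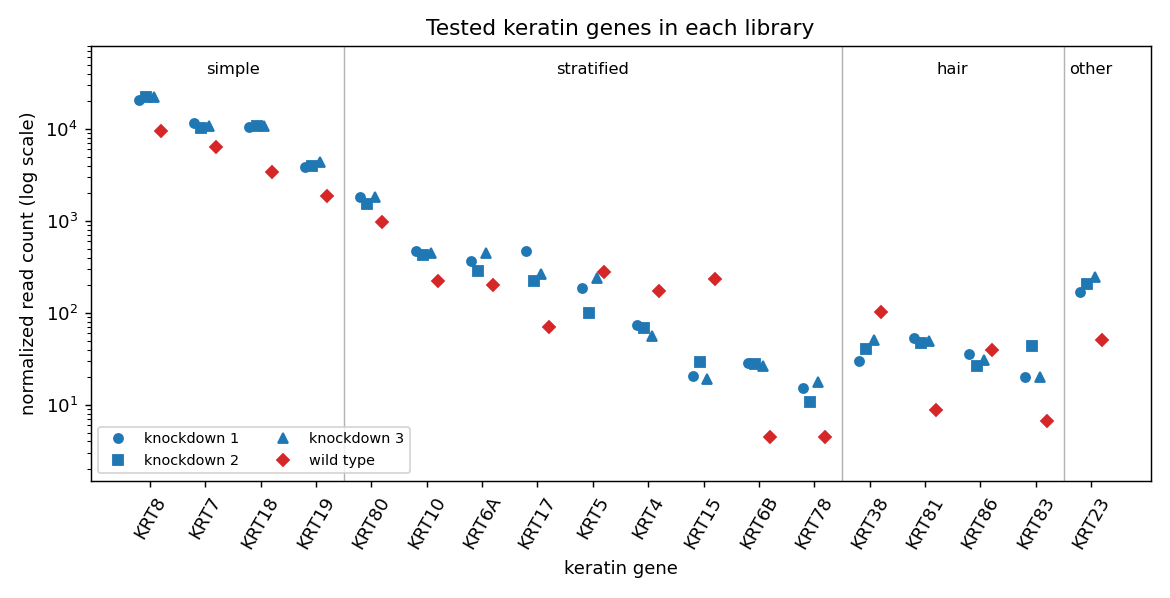
Normalized read count (log scale) of the 18 tested keratin genes in each library, grouped by class. Blue symbols are the 3 knockdown libraries and red diamonds the wild-type library. The 4 simple keratins have the highest normalized counts in every library, and wild type lies above all knockdown libraries for KRT5, KRT4, KRT15, KRT38 and KRT86.

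The simple-epithelial keratins were the abundant ones, and all 4 were called higher in knockdown, against 45.9% of protein-coding genes. KRT8 (ENSG00000170421, chromosome 12, 52897187 to 52949954, minus strand) had 20854, 22521 and 22350.0 normalized counts in knockdown 1, 2 and 3 and 9468 in wild type. The knockdown libraries lay close together and well above wild type, with a mean of 21908 ± 917 (SD, n = 3) and a log2 difference of 1.21 (SE 0.11, limma adjusted p = 2.26e-04). KRT18 (ENSG00000111057, chromosome 12, 52948871 to 52952901, plus strand), the type I partner of KRT8 and its neighbour on the chromosome, had 10435, 10837 and 10683 against 3373. Its knockdown values varied least among the 4 simple keratins (coefficient of variation 1.90%), and its difference of 1.66 (SE 0.10, adjusted p = 6.65e-05) was the largest of the 4.

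KRT7 (ENSG00000135480, chromosome 12, 52232520 to 52252186, plus strand), the type II keratin that marks ducts and the Müllerian tract, had 11634, 10344 and 10875 normalized counts in knockdown 1, 2 and 3 and 6446 in wild type. All knockdown libraries exceeded wild type, by 1.70-fold on average, with a log2 difference of 0.76 (SE 0.11, limma adjusted p = 1.36e-03). KRT19 (ENSG00000171345, chromosome 17, 41523617 to 41528308, minus strand) is an unusually short type I keratin that lacks most of the tail domain. It had 3837, 3973 and 4339 against 1888, so knockdown and wild type were again well separated, with a log2 difference of 1.10 (SE 0.11, adjusted p = 2.56e-04).

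These calls depended in part on the scaling. The deposited factors leave larger totals in knockdown than in wild type. With equal library totals the median of all genes tested moved from -0.28 to -0.84, and 20.3% of all genes were then called higher and 53.5% lower, so calls higher made up 27.5% of all calls against 46.4% with the deposited scaling (56.6% with DESeq2 and its own size factors). With equal totals KRT18, KRT8 and KRT19 were still called higher, with log2 differences of 1.10, 0.65 and 0.54 (limma adjusted p = 3.00e-04, 2.23e-03 and 2.67e-03). KRT7 was not, at 0.20 (95% interval -0.01 to 0.41, adjusted p = 0.0747). In RPM, which scales reads to each library's total in genes, KRT7 had 253, 237 and 228 in knockdown and 208 in wild type, while KRT18 had 227, 248 and 224 against 109. No tested keratin changed sign in any scaling.

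**Figure D2:**
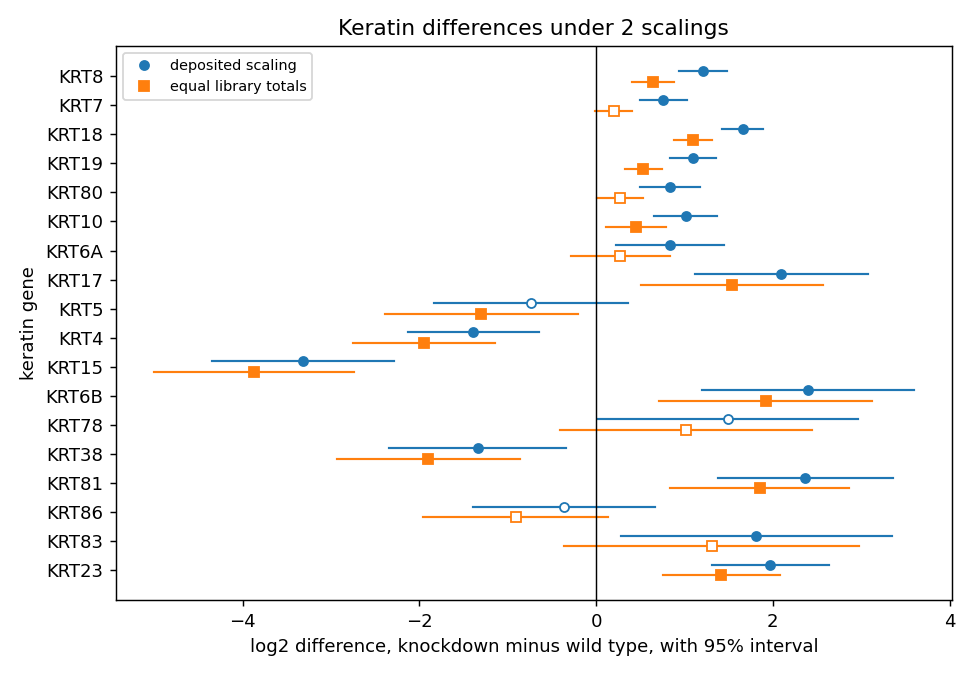
Log2 difference, knockdown minus wild type, of the 18 tested keratins with its 95% interval from limma, for the deposited scaling (blue circles) and for equal library totals (orange squares). Filled symbols passed an adjusted p of 0.05, and open symbols did not. With equal totals 8 keratins were called higher and 4 lower.

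The ratio of type II to type I partners was higher in wild type, but for KRT8 and KRT18 this was no longer so once their pseudogene copies were added. To compare genes, counts were divided by the length of the longest coding transcript in kilobases. On this scale KRT8 stood at 8557, 9241 and 9171 in knockdown and 3885 in wild type, KRT7 at 6633, 5897 and 6200 against 3675, and KRT18 at 6153, 6390 and 6299 against 1989. KRT8 therefore led in every library. KRT7 and KRT18 were close to each other in knockdown and changed places between libraries, whereas in wild type KRT18 was well under KRT7. The level of KRT8 and KRT7 over that of KRT18 and KRT19 was 1.70, 1.64 and 1.63 in knockdown 1, 2 and 3 and 2.26 in wild type. Summed over all type II against all type I members the ratio was 1.68, 1.63 and 1.63 against 2.24. Wild type lay outside the knockdown range in both cases, without a test. These ratios do not depend on the scaling between libraries, but they rest on how reads at KRT8, KRT18 and their pseudogene copies were counted. In normalized counts KRT8 over KRT18 was 2.00, 2.08 and 2.09 in knockdown and 2.81 in wild type. With the pseudogene copies added to each gene it was 1.99, 2.06 and 2.09 against 2.08, and wild type then lay within the knockdown range. The annotated exons of these genes share 525 bases on opposite strands, 16.3% of the exonic length of KRT18, and no strand setting of the counting is given in the sources used here.

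Stratified keratins went both ways: of 9 tested, 5 were called higher, 2 lower and 2 not at all. Among protein-coding genes 45.9% were called higher and 24.7% lower, so such a split is not particular to this class. KRT80, which is found at desmosomes and was placed in this class, made up 44.3% of the class total in wild type and 52.7% to 56.4% in knockdown. It had 1837, 1521 and 1841 normalized counts in knockdown 1, 2 and 3 and 967 in wild type, a log2 difference of 0.83 (SE 0.14, limma adjusted p = 2.49e-03), and with equal totals 0.27 (adjusted p = 0.0586). KRT10, the type I keratin of suprabasal epidermis, had 469, 422 and 445 against 220. The groups were well apart, at 1.01 (SE 0.15, adjusted p = 1.45e-03) and, with equal totals, 0.45 (adjusted p = 0.0263).

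KRT6A and KRT17 are the inducible keratins of wounded and hyperproliferative epithelium. KRT17 (chromosome 17, 41619441 to 41624842) had 468, 220 and 268 normalized counts in knockdown 1, 2 and 3 and 70.0 in wild type. Knockdown 1 stood above the other 2, and all 3 were over 3-fold above wild type, with a log2 difference of 2.09 (SE 0.41, limma adjusted p = 4.55e-03) that was 1.54 with equal totals (adjusted p = 0.0184) and lost its call with no filter on low values (adjusted p = 0.0897). KRT6A had 371, 288 and 445 against 202, or 0.84 (SE 0.25, adjusted p = 0.0252). That call was lost with equal totals (0.28, adjusted p = 0.296), with no filter (adjusted p = 0.155) and without knockdown 1 (0.82, adjusted p = 0.0549). KRT6B, its close copy, had 28.43, 27.98 and 26.68 against 4.44, from 4 reads in wild type, a pooled ratio of 6.25 with an exact 95% counting interval of 1.63 to 53.2 (log2 difference 2.40, adjusted p = 5.92e-03). Of the stretches of 150 bases in the longest KRT6B transcript, 12.8% occur unchanged in another gene, mainly KRT6C and KRT6A, so reads may have been split or dropped between them. KRT16, the usual type I partner of KRT6, had only 6 reads over the 3 knockdown libraries and 6 in wild type. KRT78 did not pass, at 15.2, 10.9 and 17.8 against 4.44 (adjusted p = 0.0662).

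Basal and mucosal keratins were among those lower in knockdown. KRT15, a type I keratin of basal cells and of hair follicle stem cells, had 20.9, 29.5 and 18.9 normalized counts in knockdown 1, 2 and 3 and 234 in wild type. Wild type was 10.1-fold above the knockdown mean, with a log2 difference of -3.31 (SE 0.43, limma adjusted p = 8.13e-04) and 211 reads in wild type against 22, 38 and 17. KRT15 (chromosome 17, 41513743 to 41522529) is the direct neighbour of KRT19 on the same strand, so a gene called higher and a gene called lower lie side by side there. KRT4, the type II keratin of mucosal surfaces such as the oesophagus, had 73.9, 68.4 and 55.6 against 173, a log2 difference of -1.39 (SE 0.31, adjusted p = 7.65e-03). Its usual partner KRT13 had no read in any library. Of 8 other markers of keratinocytes, 3 were tested, of which FLG and TP63 were called higher in knockdown and 0 lower. Among protein-coding genes 45.9% were called higher and 24.7% lower. IVL and LORICRIN had no read anywhere, DSG1 had none in knockdown and 4.44 normalized counts in wild type, DSG3 had 0 to 2.22 against 0, and KRTDAP stood at 1.55 to 2.22 against 13.3. The summed level of the 8 was 32806 to 37810 against 10611, nearly all of it from FLG. Their part in these differences was not tested.

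KRT5, the type II keratin of basal cells, had lower values in all 3 knockdown libraries than in wild type but did not pass the test. It had 188, 101 and 241 normalized counts in knockdown 1, 2 and 3 and 278 in wild type, and knockdown 3 came close to wild type. The log2 difference was -0.74 (SE 0.46, limma adjusted p = 0.187), and it passed with equal totals (-1.30, adjusted p = 0.0390), with edgeR (-0.67, adjusted p = 0.0308) and with a stricter filter, at 50 normalized counts (adjusted p = 0.0306). KRT5 did not pass with DESeq2 (-0.48), TMM scaling (-0.64), a pseudocount of 5 (-0.72) or no filter on low values (-0.74). Nor did it pass with any knockdown library left out. KRT14, the partner of KRT5, was nearly absent, with 2, 2 and 0 reads in knockdown and 6 in wild type. Per kilobase, KRT5 over KRT17 was 0.26, 0.30 and 0.59 in knockdown and 2.59 in wild type, so KRT17 was the higher of the pair in knockdown and KRT5 in wild type.

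Hair keratins were scarce in all libraries. Of the 4 tested, 2 were called higher and 1 lower, against 45.9% and 24.7% of protein-coding genes. KRT81, a type II hair keratin also known from carcinoma cells, had 54.0, 47.4 and 48.9 normalized counts in knockdown 1, 2 and 3 and 8.89 in wild type. With 8 wild-type reads the ratio was 5.62 with a counting interval of 2.11 to 21.1 (log2 difference 2.37, limma adjusted p = 2.86e-03). KRT83, another type II hair keratin, had 19.90, 43.52 and 20.01 against 6.66, with knockdown 2 above the other 2, and its call (1.81, adjusted p = 0.0412) was lost without knockdown 1 (adjusted p = 0.0526), without knockdown 2 (0.0868), with equal totals (0.124), with DESeq2 (0.0656) and with no filter (0.143). KRT38, a type I hair keratin, was lower, at 30.3, 40.4 and 51.1 against 102. Its difference of -1.34 (SE 0.42, adjusted p = 0.0277) lost its call without knockdown 1 (0.0615), without knockdown 2 (0.0669), with DESeq2 (0.0948) and with no filter (0.0964). KRT86, also a type II hair keratin, had 36.02, 26.42 and 31.13 against 39.99 and did not pass (-0.36, 95% interval -1.39 to 0.67, adjusted p = 0.475). KRT81 and KRT86 are hard to tell apart, since 25.6% of the stretches of 150 bases in KRT81 and 22.1% of those in KRT86 are identical to the other gene.

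KRT23, a type I keratin outside these classes that is known from carcinomas and from stressed liver, was among the clearer differences. It had 169, 205 and 243 normalized counts in knockdown 1, 2 and 3 and 51.1 in wild type. Every knockdown library was over 3-fold above wild type, with a log2 difference of 1.97 (SE 0.27, limma adjusted p = 1.11e-03) and 1.42 with equal totals (adjusted p = 5.28e-03). KRT20, the keratin of intestinal epithelium and urothelial umbrella cells, had 2 reads in knockdown 1 and none elsewhere.

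The remaining 37 members were under the filter and were not tested. Of these, 14 had no read in any library, among them KRT13, KRT2 and KRT76 of stratified epithelia, KRT28, KRT72 and KRT73 of the inner root sheath, and KRT33A, KRT34 and KRT82 of hair. The other 23 had at most 10 reads in any 1 library. Their reads came to 29, 21 and 24 in knockdown 1, 2 and 3 and 54 in the shallower wild-type library, or 27.5, 16.3 and 26.7 normalized counts against 60.0. KRT74, of the inner root sheath, had the most in wild type, with 10 reads there and 2, 2 and 0 in knockdown. KRT1, the type II keratin of suprabasal epidermis and usual partner of KRT10, had 0, 0 and 2 reads against 6.

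Set against each other, the simple keratins took a larger share of the keratin total in knockdown. They made up 92.5%, 94.0% and 92.7% of keratin normalized counts in knockdown 1, 2 and 3 and 89.7% in wild type (exact 95% binomial interval in wild type 89.1% to 90.3%, counting error only). Per kilobase the shares were 94.9% on average in knockdown and 92.9% in wild type. Stratified keratins made up 6.89%, 5.31% and 6.48% against 9.26%, and hair keratins 0.285%, 0.317% and 0.293% against 0.687%. With the deposited scaling the simple keratins summed to 47560 ± 750 (SD, n = 3) against 21175, which is 2.25-fold more, and the stratified keratins to 3185 ± 428 against 2185, or 1.46-fold more. In RPM the simple keratins came to 1018, 1091 and 1012 against 684, and the stratified ones to 75.9, 61.7 and 70.8 against 70.6, so the wild-type value of the stratified class lay within the knockdown range on that scale. Hair keratins summed to 152 ± 8.39 against 162 with the deposited scaling. In RPM they came to 3.14, 3.68 and 3.20 against 5.24, so wild type lay above the knockdown range on that scale. This rested mainly on KRT38, which had 0.66, 0.92 and 1.07 RPM in knockdown and 3.30 in wild type. Of the other tested hair keratins, KRT86 in wild type was also above the knockdown range in RPM, and KRT81 and KRT83 were under it. Simple keratins over stratified, sheath and hair keratins came to 12.9, 16.7 and 13.6 in knockdown and 8.93 in wild type. No test was made on these sums.

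**Figure D3:**
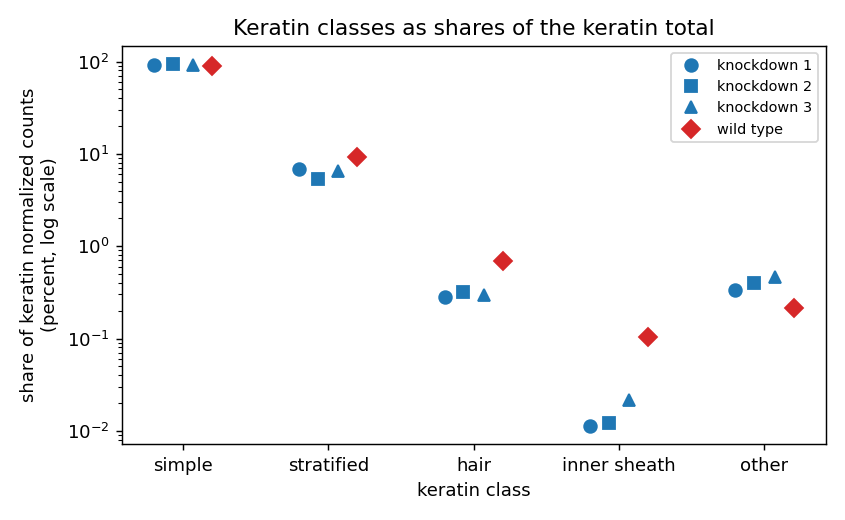
Share of each keratin class in the keratin total of normalized counts (percent, log scale) for the 3 knockdown libraries (blue) and wild type (red). Wild type lies above the knockdown libraries for stratified, hair and inner sheath keratins, and under them for the simple ones (89.7% against 92.5% to 94.0%) and the 3 other members. Most of the hair counts in wild type come from KRT38 (102 of 162).

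RefSeq promoter sequences (GRCh38.p14) were matched by symbol for 34 of the 55 members and for 5 of the 18 tested. The 250 bases before the start are shown for KRT10, which was higher in knockdown, and for KRT4 and KRT38, which were lower. They lie on the minus strand at chr17:40822615-40822864, chr12:52814117-52814366 and chr17:41440984-41441233, and are written 5′ to 3′. They are shown to set members that went in different directions side by side. The RefSeq start of KRT4 lies inside the gene span that GENCODE 29 gives, so another start further upstream is annotated. Capitals mark matches to 1 of 5 motifs searched on either strand: the TATA box TATAAA, the GC box GGGCGG, the AP-1 motif TGANTCA, the AP-2 motif GCCNNNGGC and the ZEB E-box CAGGTG.
KRT10: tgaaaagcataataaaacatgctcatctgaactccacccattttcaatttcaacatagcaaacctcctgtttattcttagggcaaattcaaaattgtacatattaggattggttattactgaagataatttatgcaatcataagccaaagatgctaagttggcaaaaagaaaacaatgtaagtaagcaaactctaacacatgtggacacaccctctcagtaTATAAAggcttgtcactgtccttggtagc
KRT4: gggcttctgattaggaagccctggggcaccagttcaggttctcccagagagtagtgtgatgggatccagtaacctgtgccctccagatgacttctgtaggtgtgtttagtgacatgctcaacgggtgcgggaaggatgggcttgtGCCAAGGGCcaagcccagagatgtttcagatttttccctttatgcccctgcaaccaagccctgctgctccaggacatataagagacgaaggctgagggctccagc
KRT38: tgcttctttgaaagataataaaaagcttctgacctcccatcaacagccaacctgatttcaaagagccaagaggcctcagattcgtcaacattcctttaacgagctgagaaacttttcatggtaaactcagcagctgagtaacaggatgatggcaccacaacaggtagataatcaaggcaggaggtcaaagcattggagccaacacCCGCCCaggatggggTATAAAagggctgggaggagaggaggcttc
KRT10 and KRT38 each hold the TATA box letters, 29 and 30 bases before the start, and KRT38 also a GC box match at 45. KRT4 holds 1 AP-2 match, 105 bases before the start, and no TATAAA. KRT8 and KRT5, the other tested keratins with a promoter entry, are not shown. KRT8, called higher, held none of the motifs in its entry, at chr12:52926470-52926719. KRT5, not called, held only a ZEB E-box match, 130 bases before the start. As for KRT4, the RefSeq starts of KRT8 and KRT5 lie inside the gene spans that GENCODE 29 gives. Other starts further upstream are therefore annotated and were not searched. Over all 38 keratin promoters in the table, some of which overlap, 21 (55.3%) held TATAAA, against 10.7% of 35116 promoters of the same length. The GC box was found in 4 of 38 (10.5%) against 42.6%, the AP-2 motif in 5 (13.2%) against 19.8%, the ZEB E-box in 6 (15.8%) against 17.5% and the AP-1 motif in 0 against 6.57%.

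The summed pseudogenes of KRT18, KRT8 and KRT19 were higher in wild type, opposite to their parent genes. The 68 KRT18 pseudogene rows summed to 281, 341 and 228 normalized counts in knockdown 1, 2 and 3 and 1545 in wild type, which is 5.46-fold more in wild type. Relative to KRT18 itself this was 2.69%, 3.15% and 2.13% in knockdown and 45.8% in wild type. The 51 KRT8 pseudogene rows summed to 498, 488 and 461 against 773, or 2.06% to 2.39% of KRT8 against 8.17%, and the 5 KRT19 rows to 13.2 to 37.8 against 95.5. Of 21 keratin pseudogenes tested, 12 were called lower and 2 higher in knockdown, with a median log2 difference of -1.65. Of these, 5 had a knockdown mean under 10 and passed the filter through wild type, and 3, both higher calls among them, had under 10 in wild type. Among the 13 with at least 10 in both groups, 8 were called lower and 0 higher. Processed pseudogenes as a whole did the same, with 61.5% of 1934 called lower and 9.67% higher and a median of -2.18, so calls of lower were common among processed pseudogenes in general.

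KRT18P15 had the most normalized counts of the KRT18 copies in wild type, at 488 against 29.4, 49.0 and 22.2 in knockdown (limma adjusted p = 6.47e-04). KRT18P10 and KRT8P45 were the pair called higher, at 16.5 ± 3.06 against 1.11 and 21.4 ± 4.55 against 2.22. In the longest KRT18 transcript, 28.9% of the stretches of 50 bases recur in other genes, mostly these copies, but none of the stretches of 150 bases does. For reads that match several places, no rule is given in the sources used here. Added to its copies, KRT18 came to 10716, 11178 and 10910 normalized counts in knockdown 1, 2 and 3 and 4918 in wild type. This is 2.22-fold more in knockdown instead of 3.16-fold. With copies added, KRT8 was 2.19-fold higher in knockdown instead of 2.31-fold, and KRT19 2.05-fold instead of 2.14-fold. KRT18 then stood little above KRT8.

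**Figure D4:**
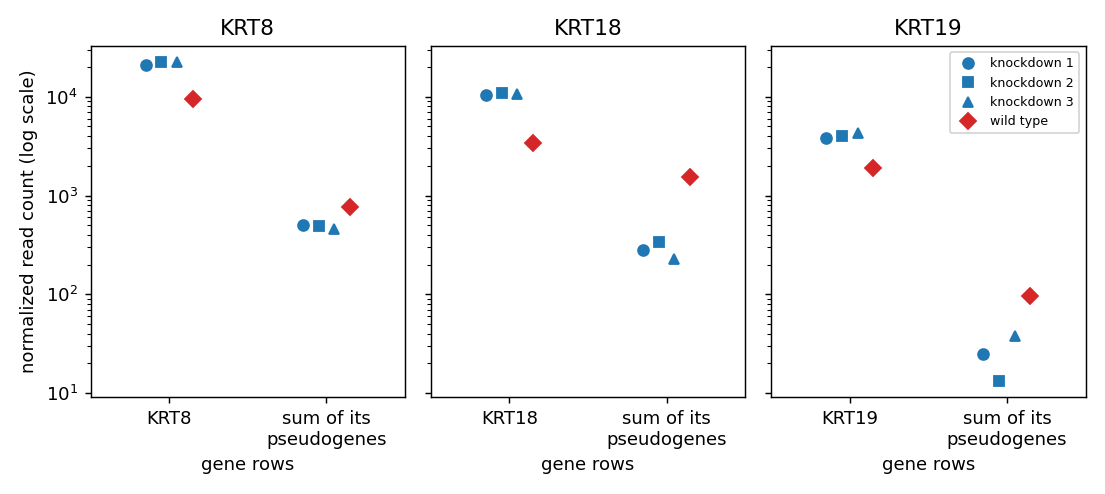
Normalized read count (log scale) of KRT8, KRT18 and KRT19 and the sum of each gene's pseudogene rows, for the 3 knockdown libraries (blue) and wild type (red). The parent genes are higher in the knockdown libraries and the pseudogene sums are higher in wild type, most for KRT18 (1545 against 228 to 341).

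An antisense transcript of KRT7 was lower in knockdown, opposite to its partner with the deposited scaling. KRT7-AS, which shares 282 exonic bases with KRT7 on the opposite strand, had 289, 305 and 255 normalized counts in knockdown 1, 2 and 3 and 949 in wild type (log2 difference -1.75, limma adjusted p = 2.23e-04). KRT10-AS1, which is annotated as protein-coding (TMEM99 in GENCODE 29) and shares 56 exonic bases with KRT10 on the opposite strand, instead had 1061, 959 and 932 against 350 (log2 difference 1.49, adjusted p = 1.56e-04), the same direction as KRT10. With equal totals the log2 difference was -2.31 for KRT7-AS and 0.20 for KRT7, which was then not called. Without the strand setting, reads of a gene and its antisense partner cannot be told apart with certainty.

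Desmosomes anchor keratin filaments at cell junctions. Of 13 desmosome genes tested, 8 were called higher and 1 lower (median log2 difference 0.56, and 0.00 with equal totals), against 45.9% and 24.7% of protein-coding genes. PERP, DSG2, PKP2 and PKP3 were 2.27-fold, 2.13-fold, 2.04-fold and 2.03-fold higher, and the plakin EVPL was lower, at 1166 ± 80.5 against 1836. Hemidesmosomes anchor keratins to the basement membrane, and here 4 of 6 genes were lower and 1 higher (median -0.81, and -1.37 with equal totals). The collagen COL17A1 stood at 166.9 ± 22.98 against 653, the integrin subunit ITGB4 at 783 ± 21.9 against 1762 and the linker PLEC at 8039 ± 502 against 17278, while the tetraspanin CD151 was 1.81-fold higher.

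Other intermediate filament genes gave no single direction, with 3 of 11 higher and 4 lower, against 45.9% and 24.7% of protein-coding genes (median -0.38, and -0.93 with equal totals). Vimentin (VIM), the filament protein of mesenchymal cells, had 738, 678 and 774 normalized counts in knockdown 1, 2 and 3 and 2326 in wild type (log2 difference -1.67, limma adjusted p = 9.47e-05). Summed fibroblast markers (9 genes, of which 2 of 7 tested were called lower and 0 higher) came to 555 to 654 against 1224. COL1A1 made up most of this sum, at 427 to 527 against 916, and DCN went the other way, at 3.11 to 7.58 against 0. Whether RNA of fibroblasts, leukocytes or other cells had a part in the vimentin difference was not tested. The neuronal filament gene INA was 3.77-fold higher in knockdown and the lamin gene LMNB2 2.21-fold, and the neurofilament gene NEFH was lower, at 15.4 ± 5.63 against 53.3. Of 15 epithelial regulators tested, 5 were higher and 3 lower, against the same 45.9% and 24.7%, and their median of 0.12 became -0.45 with equal totals. TP63, the master regulator of stratified epithelium, was low in every library, at 91.0, 83.1 and 109 against 46.6 (log2 difference 0.99, adjusted p = 0.0280). ESRP1 was 1.88-fold higher, and TFAP2A was lower, at 4836 ± 312 against 8850.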

How the data were processed

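Per the labels' protocols, stranded total RNA libraries depleted of ribosomal RNA were sequenced. The submitters' processing notes name STAR 2.7.11b, featureCounts 2.0.6, DESeq2 and the build hg38. No annotation release, strand setting or treatment of reads with several matches is given in the sources used here. The authors deposited 1 signal value per gene and library, a normalized read count. Multiplied by 1 factor for each library, 100% of these values became whole numbers, with a tolerance of 0.001 reads (factors 1.0551, 1.2869 and 0.8995 for knockdown and 0.9003 for wild type), and the reads were recovered. Among genes with 1 to 20 reads, 68.8% to 76.6% of the counts were even, against 50.2% to 50.9% above 500 reads, so mates of a pair appear to have been counted separately. Exact 95% counting intervals were therefore computed on halved counts and cover counting error only.

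The test was limma-trend (limma 3.58.1, R 4.3.3) on log2(normalized count + 1), two-sided, fitted on all 23344 genes with a mean of at least 10 over the 4 libraries, with Benjamini-Hochberg adjustment over all of them and a threshold of 0.05. This scale understates the change of low genes. Alternatives were edgeR 4.0.16 and DESeq2 1.42.0 on recovered reads (7402 and 7833 genes higher, 9271 and 6016 lower), other scalings, filters and a pseudocount of 5, and leaving out each knockdown library. In simulated data 59 of 100 genes changed 2-fold and 99 of 100 changed 4-fold were called, with 31 false calls among 23144. There, all 4 libraries were drawn with the same fixed spread, few genes were changed, and those averaged at least 50 normalized counts. The false calls are therefore no error rate for these data, where the spread of wild type is unknown. Keratins with lower means are not covered by the shares called. Positions, lengths and exon overlaps came from GENCODE 29, which held all 55 keratins. Members, classes and gene lists were chosen with earlier results of these data known. All tested keratins are named, and of each other list up to 4 called genes with the largest difference, of which 1 is not reported here. EVPL, the only desmosome gene called lower, and the marker genes named by value were chosen after their values were seen.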

Additional observations from a re-analysis of the deposited data

How the results depend on the processing

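Every tested keratin kept its direction in every alternative that tested it. TMM scaling, a pseudocount of 5 and leaving out knockdown 3 changed no keratin call. Between 8 and 12 keratins were called higher and between 2 and 8 lower over the 10 alternatives, against 12 and 3. The count of 8 lower arose with no filter on low values, where KRT24, KRT26, KRT31, KRT36 and KRT71 were called with 1 to 6 wild-type reads. These 5 had no read in any knockdown library, so their knockdown values had no spread. KRT16, with 2 reads in each knockdown library and 6 in wild type, was also called lower there (limma adjusted p = 0.0306). Its knockdown values varied little, and its SE was 0.21. KRT14, with 2, 2 and 0 knockdown reads and 6 in wild type, had an SE of 0.85 and was not called. For KRT16 the pooled ratio of knockdown to wild type was 0.278, with an exact 95% counting interval of 0.0372 to 2.07. That interval includes no change, so its reads do not establish a lower level. What lay behind the KRT16 call was not tested. With no filter KRT17 lost its call (limma adjusted p = 0.0897), as did KRT6A (0.155). Leaving out 1 knockdown library gave 10 to 12 higher and 2 or 3 lower. Over all genes, 4744 were called higher with equal library totals instead of 7329, and 5086 lower with the filter at 50 normalized counts instead of 8465, where fewer genes were tested. Per kilobase of coding transcript the simple keratins took 94.9% of the keratin total in knockdown and 92.9% in wild type, instead of 93.1% and 89.7%. No paired analysis was possible because wild type has 1 library. Depth limits KRT81, KRT83, KRT6B and KRT78, which rest on 4 to 8 wild-type reads. The wild-type library has no replicate, so its own spread is unknown.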

Other observations

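Filaggrin (FLG), which bundles keratins in the outer epidermis, stood at 32679, 37701 and 35909 normalized counts in knockdown 1, 2 and 3 and 10519 in wild type (log2 difference 1.75, limma adjusted p = 1.13e-04). Its late epidermal companions IVL and LORICRIN had no read in any library. The related gene FLG2 went the other way, at 34.8 ± 17.1 against 341 (log2 difference -3.40, adjusted p = 3.89e-03), as did FLG-AS1, at 222 ± 37.8 against 469 (adjusted p = 6.76e-03). Of 5 tested genes of the cornified envelope list, TGM5 was also higher (416 ± 66.6 against 92.2) and TGM1 lower (49.5 ± 4.61 against 102).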
